A study of Mus musculus with 8 samples.

Results

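Replication-dependent histone genes were taken as the rows of the normalised read count table whose gene symbol starts with Hist1h, Hist2h, Hist3h or Hist4h. They numbered 68 of the 23337 genes of the table: 6 genes of the linker histone H1, 18 of H2A, 19 of H2B, 12 of H3 and 13 of H4. By gene cluster, 54 lay in Hist1 on chromosome 13, 10 in Hist2 on chromosome 3, 3 in Hist3 on chromosome 11, and 1, Hist4h4, on chromosome 6. The rule uses gene names and no measured value, though this gene group was picked with earlier results of these data known.

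RNA was sequenced from cells sorted by flow cytometry as endothelial from whole mouse embryos at E15.5 (days of embryonic development). In the tamoxifen group the pregnant mother had been gavaged with tamoxifen at E12.5, and the other group had no tamoxifen. Mice of both groups were Cdh5-CreERT2(PAC);Rosa26fsTRAP transgenic, so that a Cre recombinase activated by tamoxifen was driven by the promoter of an endothelial gene, while the genotype field of each sample reads wild type. A group that received tamoxifen without the recombinase was not analysed here. The comparison asks how tamoxifen given to the mother relates to transcript levels in the sorted cells. Ribosomal RNA was depleted before library preparation.

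The labels give 4 samples per group. The header of the table is 1 field short, and 3 libraries per group (columns 3 to 5 without tamoxifen, columns 7 to 9 with it) keep their group under either placement of the names. These 6 libraries were compared and are numbered 1 to 3 within a group in table order. Columns 6 and 10 are given apart. The labels do not say that the samples came from separate litters, and the p-values speak of the spread among these libraries, part of which may be technical.

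The 6 libraries held 12212472 to 19908404 reads in genes, of which 8436939 to 13283464 were left without the ribosomal precursor Rn45s, and 1 read was worth 0.701 to 1.08 normalised reads. The 8 endothelial markers summed to 10477 to 17345 normalised reads without tamoxifen and 6924 to 17055 with it, and none was at 0. The lowest sum, 6924, was that of tamoxifen library 3, in which 8 of 8 endothelial markers lay below every library without tamoxifen. The 7 macrophage and leukocyte markers found summed to 40433 to 46591 without tamoxifen, so macrophage transcripts were part of every library. With tamoxifen they summed to 32482, 30489 and 48158 in libraries 1 to 3. All 7 lay below every library without tamoxifen in tamoxifen libraries 1 and 2, against 22.7% of all tested genes. The 5 haematopoietic progenitor markers summed to 12188 to 14321 without tamoxifen and to 10762, 11941 and 16781 with it. Tamoxifen libraries 1 and 2 also stood apart by mesenchymal and cartilage transcripts. The 7 mesenchymal and fibroblast markers summed to 43483 and 68054 in them, to 3498 in tamoxifen library 3 and to 1616 to 3183 without tamoxifen. The 5 cartilage markers behaved alike, at 15825 and 13729 in those libraries, 645 in tamoxifen library 3 and 469 to 691 without tamoxifen. No marker of these lists was at 0 in all 6 libraries. Counts and medians over the histone genes are therefore also given for tamoxifen library 3 alone and without it. In bulk samples, fewer cells of a type and less RNA per cell cannot be told apart.

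Replication-dependent histone genes supply the histones that package newly made DNA. H2A, H2B, H3 and H4 form the nucleosome core, and H1 binds the linker DNA at its entry and exit. Their transcripts are made in S phase from clustered multicopy genes gathered in the histone locus body. They typically lack introns and end in a conserved stem-loop in place of a poly(A) tail. The stem-loop binding protein SLBP holds this structure through processing, export, translation and decay. Because such transcripts carry no poly(A) tail, ribosomal depletion keeps them where poly(A) selection would lose most. The name rule also took in members that may not be typical. Among them are the pseudogene Hist3h2bb-ps, and Hist1h2be and Hist1h2bc, annotated over spans far longer than their coding sequence.

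The 3′ ends of the genes described below are shown because the stem-loop is the feature by which this class of transcript is processed. An inverted repeat with a stem of 6 base pairs and a loop of 4 bases lay within 150 bases after the stop codon in 43 of the 68 genes, searched in GENCODE M21 transcripts. Of the 44 genes with at least 60 annotated bases after the stop codon it was found in 41, and the other 24 genes had less sequence to search, so a gene without a match is not shown to lack the structure. Only transcripts without introns were searched, and a match had to start with GG and have a loop starting with TTT. The GG, the CC that pairs with it and the TTT were thus set by the search and are not findings. Each line gives the stem-loop in capitals with 5 bases on either side, 5′ to 3′.
Hist1h1c: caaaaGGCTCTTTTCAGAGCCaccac
Hist1h1d: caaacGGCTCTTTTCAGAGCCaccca
Hist2h2ac: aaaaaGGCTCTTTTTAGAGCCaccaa
Hist3h2a: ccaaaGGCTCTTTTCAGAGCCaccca
Hist1h2bg: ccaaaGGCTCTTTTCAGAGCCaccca
Hist1h3e: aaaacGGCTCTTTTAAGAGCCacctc
Hist1h4d: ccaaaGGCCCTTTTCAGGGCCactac
Hist2h4: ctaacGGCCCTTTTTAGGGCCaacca
Hist4h4: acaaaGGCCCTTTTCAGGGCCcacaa
The first 6 bases of the stem were GGCTCT in all 32 H1, H2A, H2B and H3 genes with a stem-loop found. They were GGCCCT in 9 and GGTCCT in 2 of the 11 H4 genes with one. The stretch TTTTCAGA, which holds the loop of the H1 example, was found after the stop codon of 27 genes and of no H4 gene. This search for paired bases was added after the fixed stretch had missed the H4 genes, and a match is a description of the letters.

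Promoters of 61 of the 68 genes were matched in RefSeq, and 3 are shown as examples of genes described below. They are an H1, an H2B and an H4 gene and do not stand for the values of their types. Hist2h2bb was the only tested H2B gene whose groups did not overlap. Each run is the 250 bases before the gene's start, 5′ to 3′ on the gene's strand, with the CCAAT element, matches of TATAAA and the octamer ATTTGCAT in capitals on either strand.
Hist1h1c, GRCm38.p6 chr13:23738557-23738806, plus strand: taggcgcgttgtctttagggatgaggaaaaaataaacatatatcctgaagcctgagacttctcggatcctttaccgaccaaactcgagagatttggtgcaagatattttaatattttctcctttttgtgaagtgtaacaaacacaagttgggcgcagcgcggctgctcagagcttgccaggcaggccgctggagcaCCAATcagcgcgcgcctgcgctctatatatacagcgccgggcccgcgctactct
Hist2h2bb, GRCm38.p6 chr3:96269450-96269699, plus strand: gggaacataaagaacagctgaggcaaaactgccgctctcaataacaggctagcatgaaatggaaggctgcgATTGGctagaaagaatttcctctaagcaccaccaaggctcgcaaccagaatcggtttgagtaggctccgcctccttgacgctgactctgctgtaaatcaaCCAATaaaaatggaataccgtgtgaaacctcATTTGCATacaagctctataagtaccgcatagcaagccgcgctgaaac
Hist1h4d, GRCm38.p6 chr13:23581318-23581567, plus strand: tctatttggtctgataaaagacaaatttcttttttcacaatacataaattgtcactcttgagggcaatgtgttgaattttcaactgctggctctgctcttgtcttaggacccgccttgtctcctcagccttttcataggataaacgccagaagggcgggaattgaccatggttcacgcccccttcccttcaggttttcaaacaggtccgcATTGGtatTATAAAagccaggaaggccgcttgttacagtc
In the Hist1h1c promoter CCAAT began 54 bases before the start. In Hist2h2bb the octamer began 48 bases before it, with CCAAT 79 and 179 bases before it. In Hist1h4d, CCAAT on the other strand and TATAAA began 40 and 32 bases before the start.

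CCAAT was present on either strand in 6 of 6 H1, 17 of 17 H2A, 16 of 16 H2B, 8 of 10 H3 and 3 of 12 H4 promoters, against 34.5% of all 27025 promoters of the same length. TATAAA was present in 4 of 6 H1, 7 of 17 H2A, 8 of 16 H2B, 4 of 10 H3 and 6 of 12 H4 promoters, against 13.0%. The octamer was present in 7 of 17 H2A and 6 of 16 H2B promoters and in none of the H1, H3 and H4 promoters, against 1.61%. The stretch AAACACAAA, searched for as the H1 box, was matched exactly in 1 H1, 1 H2A and 1 H2B promoter, against 0.629%. The H1 match was in Hist1h1t. Shorter or inexact forms were not searched, so a promoter without a match is not shown to lack the element. Matches of different motifs shared a base in 0 of the 61 promoters.

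No histone gene passed the threshold in either direction, while the genes for linker histone H1 and for H4 had lower median log2 fold changes, of −0.57 and −0.41, than those for H2A, H2B and H3, which lay between −0.09 and 0.05. Of the 68 genes, 60 had the mean of at least 10 normalised reads required for testing. With limma on log2(value + 1) and Benjamini-Hochberg adjustment over 13480 genes, 0 of 60 had an adjusted p under 0.05, and the lowest was 0.397. Of all tested genes, 0.0445% passed higher with tamoxifen and 0.0% lower. At an unadjusted p under 0.05, 14 of the 60 histone genes were lower with tamoxifen, or 23.3%, against 4.12% of all tested genes. None of the 60 was higher at that level, against 4.89%. These 14 comprised 4 H1, 2 H2A, 1 H2B and 7 H4 genes, and no H3 gene.

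The values of the 3 tamoxifen libraries lay below all 3 without tamoxifen in 11 histone genes, or 18.3% of those tested, against 7.62% of all tested genes. No histone gene had its tamoxifen libraries all above, against 6.24%. These 11 were 4 H1 genes, 5 H4 genes, Hist2h2ac and Hist2h2bb. The median log2 fold change was −0.57 over the 5 tested H1 genes, −0.41 over 12 H4, −0.09 over 14 H2A, −0.04 over 12 H3 and 0.05 over 17 H2B genes. Over all 60 it was −0.10, and over all tested genes −0.02. Below 0 were 5 of 5 H1, 12 of 12 H4, 11 of 14 H2A, 7 of 12 H3 and 5 of 17 H2B genes, and 40 of 60 in all, against 53.5% of all tested genes. The figure over all 60 did not hold across libraries. With tamoxifen library 3 as the only tamoxifen library, 22 were below 0 (median 0.14), and without that library 52 were (median −0.23). Without library 3 of the group without tamoxifen, 30 were below 0 (median 0.0058).

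**Figure D1:**
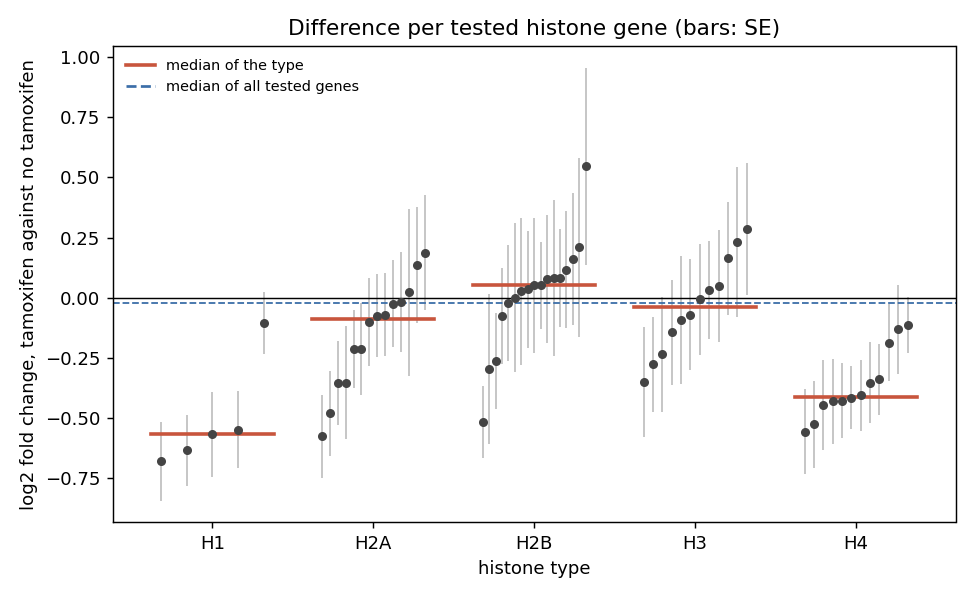
Difference of each of the 60 tested histone genes, as the log2 fold change of tamoxifen against no tamoxifen on the log2(value + 1) scale (3 libraries per group), by histone type. Points are genes, grey bars their standard errors, red lines the medians of the types and the dashed line the median of all tested genes (−0.02); the H1 and H4 medians sit at −0.57 and −0.41.

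The count depended on tamoxifen library 3. Without it, limma called 17 histone genes lower and 0 higher, or 28.3% of those tested, against 3.48% of all tested genes lower and 7.22% higher. The 17 were 4 H1, 8 H4, 3 H2A, 1 H2B and 1 H3 gene. The libraries then left were tamoxifen 1 and 2, those with the mesenchymal and cartilage transcripts and the lower macrophage marker sums. With tamoxifen library 3 as the only tamoxifen library, no histone gene passed, the H1 median was −0.21 and the H4 median −0.11, while those of H2A, H2B and H3 were 0.15, 0.32 and 0.31. Without tamoxifen library 3 the medians were −0.75 for H1, −0.48 for H4, −0.23 for H2A, −0.12 for H2B and −0.18 for H3. The sign of the H2A, H2B and H3 medians thus depended on whether this library was in the group, alone in it or left out, while the H1 and H4 medians were below 0 each time. The part of those transcripts' source in the result was not tested.

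Tamoxifen library 3 had the highest value of its group in 56 of the 60 genes, against 46.8% of all tested genes. It lay below every library without tamoxifen in 13 of the 60, among them 4 of 5 H1 and 5 of 12 H4 genes, against 26.7% of all tested genes. Tamoxifen libraries 1 and 2 both lay below every library without tamoxifen in 25 of the 60, against 22.7%. By type these 25 were 4 of 5 H1, 10 of 12 H4, 7 of 14 H2A, 2 of 17 H2B and 2 of 12 H3 genes.

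Count tests on the whole reads recovered from the table differed in their calls. With edgeR's quasi-likelihood test, 0 histone genes passed, against 0.0% of all tested genes lower and 0.0371% higher. With DESeq2, 2 histone genes passed, both lower with tamoxifen, against 0.208% of all tested genes lower and 1.83% higher. They were Hist1h1b (log2 fold change −0.60, DESeq2 adjusted p 0.00956) and Hist1h1c (−0.64, DESeq2 adjusted p 0.00683).

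Summed over all 68 genes, histone values were 103639, 110772 and 121304 normalised reads in the libraries without tamoxifen and 83480, 82881 and 110725 with it. Tamoxifen libraries 1 and 2 lay below the other group and library 3 lay within it. As a share of reads without Rn45s, histone genes took 1.15%, 1.22% and 1.35% without tamoxifen and 0.945%, 0.943% and 1.19% with it.

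**Figure D2:**
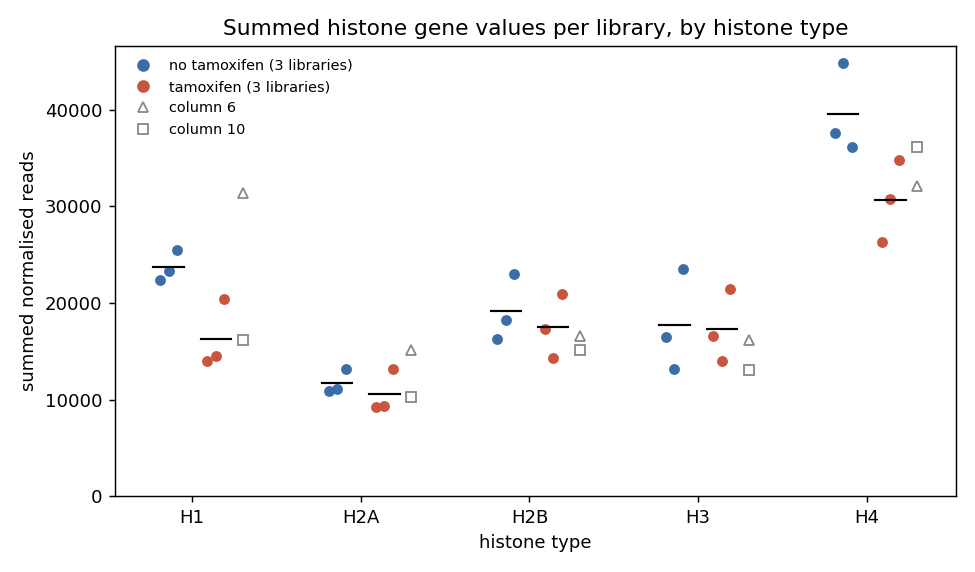
Normalised reads summed over the genes of each histone type, per library; filled points are the 3 libraries of each group, black lines their means, and open symbols columns 6 and 10. H1 sums run from 22348 to 25440 without tamoxifen and from 14021 to 20371 with it, while the groups overlap for H2A, H2B and H3.

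Linker histone H1 was the type whose median log2 fold change was furthest from 0. Hist1h1c, the H1 gene of the highest level, gave 8527, 8891 and 9259 normalised reads without tamoxifen and 4801, 4921 and 7237 with it. The groups did not overlap. The log2 fold change was −0.68 ± 0.16 (SE, 95% interval −1.05 to −0.31), with a limma adjusted p of 0.397. The gene lies at GRCm38 chr13:23738808-23740367 on the plus strand, and its stem-loop and promoter are among those printed above.

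Hist1h1b, another somatic linker histone gene, gave 3219.9, 3511 and 3453 normalised reads without tamoxifen and 1931, 1951 and 2772 with it, again without overlap. Its log2 fold change was −0.63 ± 0.15 (SE), with a limma adjusted p of 0.397. In Hist1h1d the values were 3132, 3281 and 3599 without tamoxifen and 1946, 2079.7 and 2928 with it. In each of these genes tamoxifen library 3 was the highest of its group and still below the other group. The log2 fold change of Hist1h1d was −0.55 ± 0.16 (SE), with a limma adjusted p of 0.462.

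Hist1h1e gave 5378, 5198 and 6725 normalised reads without tamoxifen and 3192, 3657 and 4953 with it. Its groups did not overlap either (log2 fold change −0.57 ± 0.18 SE, limma adjusted p 0.462). In the annotation Hist1h1e overlaps Hist1h2be and Gm11398 on the same strand, and how the authors' counting treated reads in the overlap is not known here.

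Hist1h1a was the exception among the tested H1 genes. It gave 2088, 2429.5 and 2399 normalised reads without tamoxifen and 2135, 1860.3 and 2469.6 with it, so that the groups overlapped. The log2 fold change was −0.10 ± 0.13 (SE, 95% interval −0.40 to 0.19), with a limma adjusted p of 0.834. Hist1h1t, which encodes the linker histone of the testis, was at 3.80 to 15.4 normalised reads over the 6 libraries and was not tested.

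**Figure D3:**
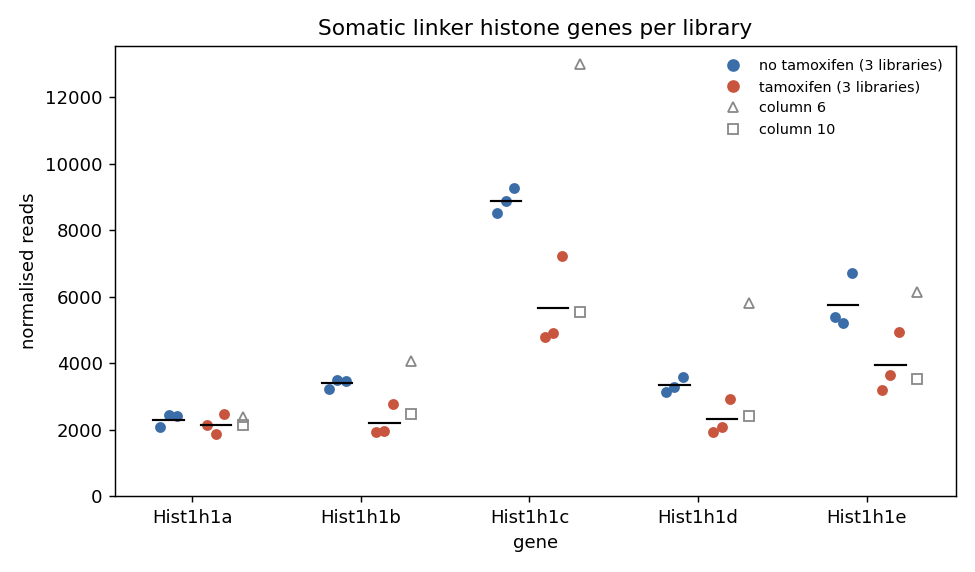
Normalised reads of the 5 tested linker histone genes per library; filled points are the 3 libraries of each group, black lines their means, and open symbols columns 6 and 10. In Hist1h1b, Hist1h1c, Hist1h1d and Hist1h1e the 3 tamoxifen points lie below the 3 without tamoxifen; in Hist1h1a they overlap, at 1860.3 to 2469.6 against 2088 to 2429.5.

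Linker histone genes made up 21.6%, 21.1% and 21.0% of the summed histone values without tamoxifen and 16.8%, 17.5% and 18.4% with it. This share did not overlap between the groups, tamoxifen library 3 included. Per kilobase of coding sequence, the summed H1 level was 0.593, 0.567 and 0.584 of the mean of the 4 core types without tamoxifen and 0.444, 0.458 and 0.495 with it. Both are descriptions, and neither was tested. H1 genes share less of their coding sequence with other genes than the core types do, as given below. The ratio therefore compares libraries and does not measure the level of H1 against the core types.

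**Figure D4:**
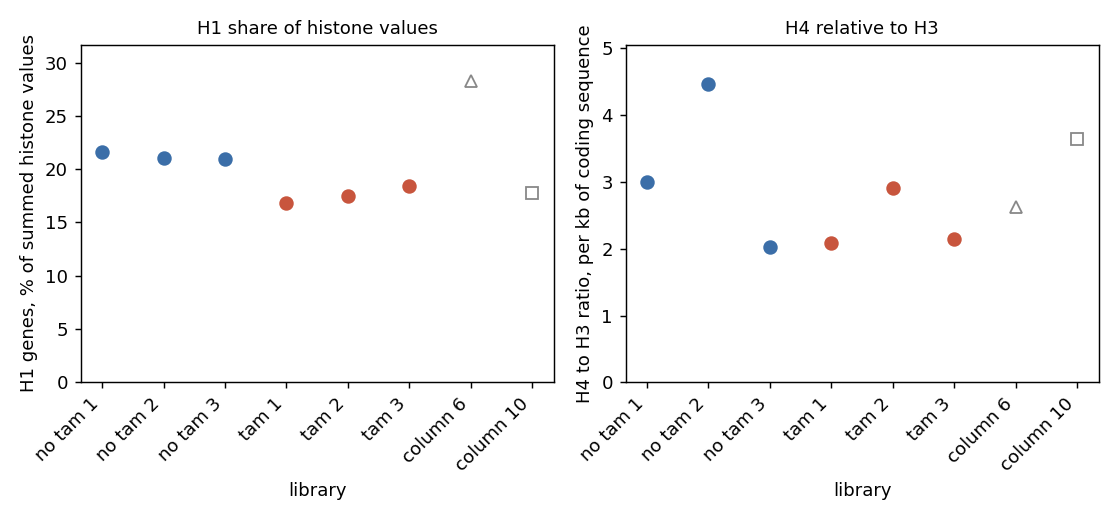
Left, H1 genes as a percentage of all summed histone values in each library; right, the ratio of summed H4 to summed H3 levels per kilobase of coding sequence. The H1 share is 21.0% to 21.6% in the 3 libraries without tamoxifen and 16.8% to 18.4% in the 3 with it, while the H4 to H3 ratio overlaps between the groups.

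The 3 highest levels per coding length were those of H4 genes, and all 13 H4 genes encode 1 protein. Over the 6 libraries Hist1h4d averaged 19999, Hist1h4h 19411 and Hist1h4f 16899 normalised reads per kilobase of coding sequence. The linker gene Hist1h1c averaged 11381 and the H3 gene Hist1h3e 9793 on the same scale. This scale divides by coding length only and does not correct for shared sequence, which differs between types. Summed over the 13 genes, H4 values were 37613, 44828 and 36130 normalised reads without tamoxifen and 26356, 30777 and 34805 with it. The groups did not overlap, but tamoxifen library 3 lay close below the lowest library of the other group.

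Hist1h4f gave 6076, 7755 and 5050.5 normalised reads without tamoxifen and 3521, 4547 and 4685 with it (log2 fold change −0.56 ± 0.18 SE, limma adjusted p 0.471). Hist1h4c gave 3295, 4136 and 3026 without tamoxifen and 2461, 2619 and 2701 with it (−0.41 ± 0.13 SE, limma adjusted p 0.462). In Hist1h4h the values were 6443, 7816 and 6406 without tamoxifen and 4302, 5437 and 5933 with it. The groups did not overlap in any of the 3 genes, nor in Hist1h4a and Hist4h4.

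Hist4h4 is the only gene of its cluster, at GRCm38 chr6:136801553-136804415 on the minus strand. It shares none of its coding 50-base stretches with another gene. It gave 672, 792 and 737 normalised reads without tamoxifen and 455, 528 and 671 with it. Its log2 fold change was −0.43 ± 0.16 (SE), with a limma adjusted p of 0.496.

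Hist2h4, the H4 gene of the Hist2 cluster, gave 1824, 2434 and 2176 normalised reads without tamoxifen and 1380.1, 1326 and 2085 with it. Here tamoxifen library 3 lay within the other group (log2 fold change −0.45 ± 0.19 SE, limma adjusted p 0.537). Hist1h4d, the H4 gene of the highest level, differed least of the tested H4 genes. It gave 6586, 5975 and 6873 without tamoxifen and 5530.5, 5748 and 6725 with it, with a log2 fold change of −0.11 ± 0.12 (SE, 95% interval −0.38 to 0.15; limma adjusted p 0.785).

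H3 genes showed no shift in one direction. The 12 genes encode 2 proteins: 4 genes, Hist1h3a, Hist1h3g, Hist1h3h and Hist1h3i, share one, and the other 8 genes the other. Summed values of the first were 3399, 2408 and 4908 normalised reads without tamoxifen and 3495, 2983 and 4764 with it. Those of the second were 13102, 10801 and 18630 without tamoxifen and 13105, 10984 and 16661 with it. In both, the 3 tamoxifen libraries lay within the range of the libraries without it.

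Hist1h3e, the H3 gene of the highest level, gave 3591, 2902 and 5538 normalised reads without tamoxifen and 3900.4, 3405 and 4814 with it. Its log2 fold change was 0.05 ± 0.23 (SE, 95% interval −0.48 to 0.58), with a limma adjusted p of 0.966. Library 3 was the highest of each group. Hist2h3b, of the Hist2 cluster, gave 1144, 1084 and 1459.5 without tamoxifen and 933, 810.4 and 1345 with it (−0.28 ± 0.20 SE, limma adjusted p 0.682).

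H2A genes of Hist1 had values that overlapped between the groups. Hist1h2ak, the H2A gene of the highest level in Hist1, gave 2138, 2128 and 2929 normalised reads without tamoxifen and 2163, 1989 and 2939 with it. The groups overlapped (log2 fold change −0.03 ± 0.18 SE, limma adjusted p 0.977). The same held for all 10 tested H2A genes of Hist1.

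Hist2h2ac, an H2A gene of the Hist2 cluster, gave 653, 783 and 828 normalised reads without tamoxifen and 429, 463 and 643 with it. Its groups did not overlap (log2 fold change −0.58 ± 0.17 SE, limma adjusted p 0.462), with tamoxifen library 3 close below the other group. Hist3h2a, the H2A gene of the Hist3 cluster, gave 1736, 2089 and 1501 without tamoxifen and 1007, 1319 and 1510.1 with it. Its groups overlapped by tamoxifen library 3 (−0.48 ± 0.18 SE, limma adjusted p 0.496). Hist3h2a overlaps Trim17 on the same strand in the annotation and Gm44313 on the other. Of all histone genes, 24 overlap another annotated gene on the same or the other strand, Hist1h2ak and Hist2h2ac among them.

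H2B was the type with a median above 0 and with most genes above 0, 12 of 17. That direction did not hold with 1 library left out: without tamoxifen library 3 the median was −0.12 with 13 of 17 below 0, and without library 1 or 2 of the other group it was −0.09 or −0.07. Hist1h2bg, the H2B gene of the highest level in Hist1, gave 1359.6, 1584 and 2213 normalised reads without tamoxifen and 1919, 1419 and 2079 with it. The groups overlapped (log2 fold change 0.08 ± 0.20 SE, limma adjusted p 0.924). Over the 13 tested H2B genes of Hist1 the median log2 fold change was 0.05.

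Hist2h2bb, the H2B gene of the highest level per coding length, gave 5948, 7081 and 5500.2 normalised reads without tamoxifen and 3708, 4201 and 5093 with it. The groups did not overlap (log2 fold change −0.52 ± 0.15 SE, limma adjusted p 0.462). It lies at GRCm38 chr3:96269752-96270132 on the plus strand, where the annotation also has Gm42743 on the same strand and Gm20628 on the other. The pseudogene Hist3h2bb-ps gave 42.5, 85.3 and 81.4 without tamoxifen and 51.2, 48.5 and 63.8 with it (−0.30 ± 0.31 SE, limma adjusted p 0.794).

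By cluster, the median log2 fold change was −0.07 over the 47 tested genes of Hist1, −0.35 over 9 of Hist2 and −0.30 over 3 of Hist3, and the value of Hist4h4 was −0.43. When each library was left out in turn, the Hist1 median ranged from −0.21 to 0.10, so its sign was not stable. The range was −0.49 to −0.18 for Hist2, −0.49 to −0.12 for Hist3 and −0.58 to −0.30 for Hist4h4. The sums over Hist1 were 91015, 95835 and 108223 normalised reads without tamoxifen and 74952, 73724 and 98676 with it, so that tamoxifen library 3 lay within the other group. The sums over Hist2 were 10153, 11950 and 10723 without tamoxifen and 6979, 7238 and 9772 with it, without overlap. Within Hist1 the median was −0.57 for H1 and −0.38 for H4, against −0.07 for H2A, 0.05 for H2B and 0.03 for H3. Differences between clusters or types were not tested.

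Libraries of the same group differed by histone type. Among the libraries without tamoxifen, library 3 was the highest in 12 of 12 H3, 14 of 17 H2B, 10 of 14 H2A and 3 of 5 H1 genes, against 36.0% of all tested genes. For H4, library 2 was the highest in 11 of 12 genes, against 33.3%. The ratio of H4 to H3 levels per kilobase of coding sequence was 3.0, 4.47 and 2.02 in the 3 libraries without tamoxifen and 2.09, 2.90 and 2.14 with it. This ratio varied as much within the group without tamoxifen as between the groups. Without library 3 of that group the median log2 fold change was 0.05 for H2A, 0.29 for H2B and 0.18 for H3, and was −0.49 for H1 and −0.43 for H4.

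**Figure D5:**
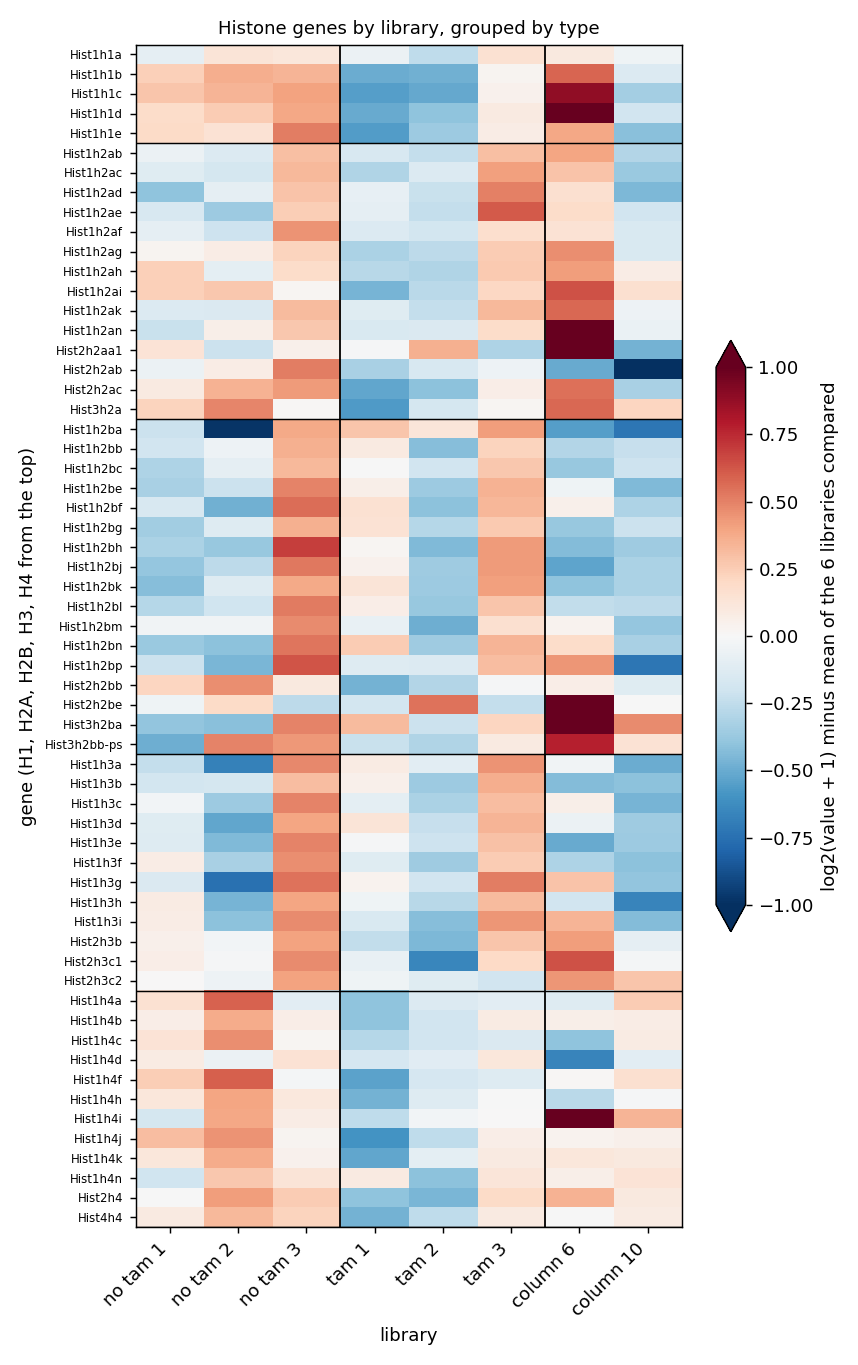
Each of the 60 tested histone genes (rows, by type from H1 at the top to H4 at the bottom) in the 6 libraries compared and columns 6 and 10; colour gives log2(value + 1) minus the gene's mean over the 6 libraries. Library 3 without tamoxifen is highest in 12 of 12 H3 and 14 of 17 H2B genes, library 2 in 11 of 12 H4 genes, and 4 of 5 H1 genes are lower in all 3 tamoxifen libraries.

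Many of these genes share sequence with each other, and reads from shared stretches cannot be assigned to 1 gene. Of the 67 genes with a coding sequence, 51 share over 50% of their coding 50-base stretches with a transcript of another gene, and 10 belong to pairs of identical coding sequence. H1 genes shared 0.0% to 26.4% of theirs, and the medians of H2A, H2B, H3 and H4 genes were 83.9%, 79.8%, 84.7% and 70.3%. Members averaging under 1 normalised read numbered 7, and 6 of these share all of their coding stretches. The 8 genes not tested were Hist1h1t, Hist1h2aa, Hist1h2ao, Hist1h2ap, Hist1h2bq, Hist1h2br, Hist1h4m and Hist2h2aa2, and 4 of them were at 0 in all 6 libraries. A count of 0 allows up to 3 reads per library, or 2.10 to 3.24 normalised reads by counting error alone.

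Values of the genes that share under 50% of their coding stretches are given apart. Of the 16, 14 were tested, their median log2 fold change was −0.44, against −0.10 over all 60 tested histone genes, and 11 were below 0. Groups did not overlap, lower with tamoxifen, in 6 of them, against 18.3% of the tested histone genes and 7.62% of all tested genes. These 14 include the 5 tested H1 genes, and 3 H4 genes with a median of −0.43.

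The other genes of histone supply showed no difference called by limma on the 6 libraries in any of the 7 lists. Without tamoxifen library 3, limma called 1 of 22 chaperone genes higher, Cdan1 (log2 fold change 0.47, adjusted p 0.0408), against 7.22% of all tested genes. It called 1 of 11 replication-independent variants lower, H3f3b (−0.45, adjusted p 0.0184), against 3.48% of all tested genes. DESeq2 called Cdan1 as well (adjusted p 0.0496), against 1.83% of all tested genes higher. Npat, which encodes the coactivator of histone gene transcription, gave 398, 456 and 457 normalised reads without tamoxifen and 537, 408 and 449 with it (log2 fold change 0.08 ± 0.14 SE, limma adjusted p 0.890). Of the 10 genes of histone transcription and the histone locus body, 8 were above 0, with a median of 0.17. Coil, which encodes the Cajal body scaffold coilin, had the lowest p of that list (−0.31 ± 0.19 SE, limma adjusted p 0.646).

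Slbp, whose product binds the stem-loop printed above, gave 533, 631 and 596 normalised reads without tamoxifen and 737, 568 and 757 with it. The groups overlapped by tamoxifen library 2 (log2 fold change 0.22 ± 0.14 SE, limma adjusted p 0.652). Over the 23 genes of 3′ end processing, export, translation and decay the median was −0.07, with 14 below 0. Snrpf, a shared Sm protein of the spliceosomal and U7 particles, had the lowest p (−0.34 ± 0.12 SE, limma adjusted p 0.475).

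Of the 22 histone chaperone and chromatin assembly genes, 15 were below 0, with a median of −0.07. Cdan1, whose product binds the histone chaperone ASF1, gave 368, 391 and 403 normalised reads without tamoxifen and 526, 547 and 524 with it. Its groups did not overlap (log2 fold change 0.46 ± 0.11 SE, limma adjusted p 0.397). Of the 11 genes listed as replication-independent variants, 7 were below 0, with a median of −0.15. Cenpa, the histone H3 variant of centromeres, gave 874, 795 and 982 without tamoxifen and 742, 718 and 761 with it (−0.25 ± 0.11 SE, limma adjusted p 0.558).

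Cell cycle genes are given because histone transcripts are tied to S phase. Of 24 S phase and DNA replication genes, 16 were above 0, with a median log2 fold change of 0.03. Pcna, the sliding clamp of replication, gave 2419.9, 2912 and 1918 normalised reads without tamoxifen and 1931, 2384 and 2667 with it (−0.05 ± 0.18 SE, limma adjusted p 0.957). Gins1, a subunit of the replicative helicase, had the lowest p of that list (−0.29 ± 0.16 SE, limma adjusted p 0.616). Of 15 genes of G2 and mitosis, 14 were below 0, with a median of −0.13.

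Mki67, a marker of cycling cells, gave 9252, 9465 and 9714 normalised reads without tamoxifen and 9279, 8199 and 8801 with it (log2 fold change −0.12 ± 0.10 SE, limma adjusted p 0.753). Ccnb1, which encodes a mitotic cyclin, gave 838, 889 and 807 without tamoxifen and 682, 706 and 725 with it, without overlap (−0.26 ± 0.10 SE, limma adjusted p 0.508). Of 5 other short RNAs without a poly(A) tail found in the table, 4 were tested, 2 on each side of 0, with a median of −0.06. Terc, the telomerase RNA, had the lowest p of these (0.43 ± 0.29 SE, limma adjusted p 0.665).

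Column 6, which carries a name of either group depending on the header, had an H1 sum of 31421 normalised reads, above all 6 libraries compared. Its H1 share of histone values was 28.2%, and its total over all 68 genes was 111324. Hist1h1c was at 12991 and Hist1h1d at 5808 there. Its 8 endothelial markers summed to 2899, below all 6 libraries compared. Of the 60 tested genes, 19 lay above all 3 libraries without tamoxifen and 15 below, against 40.9% and 47.8% of all tested genes. The column also differed in its other transcripts, with the mesenchymal markers at 347894, the macrophage markers at 592, the 5 erythroid markers found at 11587 against 125 to 231 in the 6 libraries, and Mki67 at 50702. The erythroid marker Hba-a1 was at 0 in it and in the 6 libraries. The part of these in the H1 value was not tested.

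Column 10, which has a tamoxifen name or none depending on the header, had an H1 sum of 16126 normalised reads and an H1 share of 17.8%, both between the lowest and highest tamoxifen library. Hist1h1c was at 5545 and Hist1h1b at 2482. Its H4 sum was 36184, above all 3 tamoxifen libraries and within the range without tamoxifen. None of the 60 tested genes lay above all 3 libraries without tamoxifen, against 25.6% of all tested genes, and 26 lay below, against 29.4%. Its endothelial markers summed to 4679, below all 6 libraries compared, its mesenchymal markers to 2540 and its macrophage markers to 39594. The part of these in its histone values was not tested.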

How the data were processed

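The deposited values are a signal (read counts normalised across libraries, by gene symbol) made by the authors with STAR, HTSeq 0.11.2 and DESeq2 per the submitters' processing notes, which list the builds hg38 and mm10 without their roles. Strand use in counting is not stated in these sources. In all columns used, 100% of values were whole multiples of 1 step within 0.001 reads, and the recovered reads entered edgeR 4.0.16 and DESeq2 1.42.0 as alternatives. 1 value column was not used. Genes with a mean of at least 10 over the 6 libraries were tested with limma 3.58.1 (R 4.3.3) on the log2 of the value plus 1, with a moderated variance that follows the mean level and Benjamini-Hochberg adjustment over 13480 genes. This scale understates the change of low genes. Members and lists were chosen with earlier results of these data known, and 110 of 117 list symbols were found. Named genes are the tested member of the highest mean in each cluster and type, the 5 members of lowest p, the gene of lowest p in each list, and Slbp, Npat, Pcna and Mki67. Hist1h1a, Hist1h1e, Hist1h4c, Hist1h4f, Hist1h4h and H3f3b were added after their values were seen. Coordinates are 1-based, from GENCODE M21. Promoters are from RefSeq, build GRCm38.p6. The limma fit was run on simulated counts with the same spread for all genes. No split within a group, such as that among the tamoxifen libraries, was simulated. The run checks the code and not the calls made here.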

Additional observations from a re-analysis of the deposited data

Results flagged for a closer look

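The summed value of the 6 H1 genes was 31421.5 normalised reads in column 6, a column outside the comparison, above the 22348 to 25440 of the 3 libraries without tamoxifen. It is given as a value because the group of this column cannot be read from the header.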

How the results depend on the processing

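The count of 0 histone genes lower with tamoxifen became 2 with DESeq2 and ranged from 0 to 17 when each library was left out in turn. It was 0 under the other settings tried, and 0 were higher in all 18 settings. Over all tested genes, the 6 higher became 247 with DESeq2, 0 with the names over the first 8 value columns and 28 with tamoxifen library 3 alone, and ranged from 2 to 973 with 1 library left out. The 0 lower became 28 with DESeq2, 1 with column 10 added and 63 with tamoxifen library 3 alone, and ranged from 0 to 469. With tamoxifen library 3 alone the median log2 fold change was −0.21 for H1, −0.11 for H4 and −0.13 for Hist4. The cause was not tested.

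With the replicate block, 20 genes were higher, 1 was lower and no histone gene passed. The numbers were not taken to pair the libraries, since deviations correlated at 0.195, 0.0364 and 0.345 for numbers 1, 2 and 3, and not every library correlated best with its own number.

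Values that changed sign are as follows. Hist1h2ak was 0.0092 with edgeR, 0.12 with the names over the first 8 columns, 0.31 with tamoxifen library 3 alone and −0.19 to 0.13 with 1 library left out. Hist1h2bg was −0.0214 with the first 8 names and −0.0707 to 0.28 with 1 library left out. Hist1h3e was −0.0470 with column 10, −0.0828 with the first 8 names and −0.16 to 0.31 with 1 library left out. Hist1h4d was 0.0542 with the last 8 names and 0.0564 with tamoxifen library 3 alone, where Hist2h3b was 0.14. With the last 8 names Snrpf was 0.0902, Cdan1 −0.0591, Npat −0.0601 and Pcna 0.0985. Pcna was also 0.0325 with column 10, 0.16 with tamoxifen library 3 alone and −0.20 to 0.0988 with 1 library left out, and Npat −0.0276 to 0.17. With the first 8 names Terc was −0.13 and Mki67 0.52. Over the 18 settings 4 of 5 H1 and 9 of 12 H4 genes were negative in every one. So were 3 of 13 H2A, 2 of 14 H2B and 1 of 12 H3 genes, and 19 of 56 in all. The settings share libraries and are not separate tests, and the share over all tested genes was not taken.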
